A study of Homo sapiens with 31 samples.

Results

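The genes described here are the 4 human Notch receptors NOTCH1, NOTCH2, NOTCH3 and NOTCH4, their 5 canonical ligands JAG1, JAG2, DLL1, DLL3 and DLL4, and HES1, a transcriptional repressor that Notch signaling switches on. They were chosen by name, with earlier results of these data known but by no threshold on a measured value, and all 10 were found among the 19221 genes of the table. A Notch receptor sits in the cell membrane and is activated by a ligand on a neighboring cell. Proteases of the ADAM family and the gamma-secretase complex then cut the receptor, and its intracellular domain moves to the nucleus, where it joins the DNA-binding protein RBPJ and co-activators of the MAML family at target genes such as HES1. In epithelial tissues the pathway takes part in the choice between growth and differentiation, and altered Notch signaling has been described in ovarian cancer.

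Messenger RNA was sequenced in 31 libraries of cultured human lines that the study used as models of ovarian cancer. The paper itself questions the use of C13*, given its origin, and states that A2780 was reported as an unlikely high-grade serous line. Expression is given as FPKM, fragments scaled by transcript length and by the mapped fragments of the library. FPKM is per length and so allows levels of different genes to be compared. C13*, a line proficient in homologous recombination, carried either a control short hairpin RNA (C13* shCON, n = 7) or a short hairpin RNA against CEBPB (C13* shCEBPB, n = 8), each delivered by lentivirus, so the controls carried a vector too. CEBPB encodes the transcription factor C/EBPβ. By the labels, A2780 (n = 8) is the parent line of A2780 OlaR (n = 8). The paper describes A2780 OlaR as grown in rising amounts of the PARP inhibitor olaparib until it was stably resistant. Each group is 1 line or stably transduced culture, and the labels do not state whether its libraries came from separate cultures, so p-values measure the spread between these libraries.

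CEBPB itself stood at 85.8 ± 9.93 FPKM (SD, n = 7) in C13* shCON and 47.1 ± 9.05 (SD, n = 8) in C13* shCEBPB, with ranges of 75.2 to 100.7 and 30.2 to 58.7 that did not overlap. It stood at 99.7 ± 7.63 FPKM (SD, n = 8) in A2780 and, with overlap, at 112 ± 11.6 (SD, n = 8) in A2780 OlaR. The libraries labelled A2780 OlaR were far more like C13* shCON than like their labelled parent. Across 12967 genes, the group means of log2(FPKM + 1) of A2780 OlaR correlated with those of C13* shCON at r = 0.993 and with those of A2780 at r = 0.709. C13* shCON and C13* shCEBPB correlated at r = 0.791. Of 8 epithelial markers, 8 had means of at least 1 FPKM in C13* shCON and in A2780 OlaR, 4 in C13* shCEBPB and 3 in A2780, while 3 keratins of that list, KRT7, KRT8 and KRT18, were higher in C13* shCEBPB than in C13* shCON. The 6 squamous markers summed to between 2542 and 3089 FPKM in C13* shCON and 2570 and 3370 in A2780 OlaR, against 85.2 to 171.8 in C13* shCEBPB and 0.416 to 1.87 in A2780. The 6 mesenchymal markers summed to between 31.1 and 44.4 FPKM in C13* shCON and A2780 OlaR, 353 and 381 in C13* shCEBPB and 897 and 942 in A2780, and VIM gave most of the high sums. Of the others, ZEB1 and ZEB2 were also higher in C13* shCEBPB than in C13* shCON. By group mean, CDH2 (7.56 against 17.3 FPKM), TWIST1 (3.07 against 6.52) and FN1 (6.98 against 7.93) were lower there. The 7 ovarian markers were mixed, with PAX8 higher in C13* shCON and A2780 OlaR than in the other groups and FOLR1 at 887 FPKM in C13* shCEBPB and 13.3 or less elsewhere. The hairpin or the drug therefore cannot be told apart from such differences in cell state or line, and their part in the results below was not tested. The codes of the libraries begin with C in A2780 OlaR, CS in C13* shCON, O in A2780 and R in C13* shCEBPB. Groups are named here by their labels, and whether the labels match the cells sequenced was not tested. C13* shCON replicate 1 carries A2780 as its cell line label although its title is C13* shCON, and the Notch gene calls were the same without it.

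The promoter of HES1 is shown because it is the best described landing site of the Notch nuclear complex among these genes. RefSeq promoters (GRCh38.p14, 250 bases before to 50 bases after the annotated start) were matched for 8 of the 10 genes, all but DLL1 and DLL3. The core bound by RBPJ, TGGGAA, was searched on both strands. It stood in 24.3% of 27305 promoters, and at 2 or more places in 3.81%. Of the 8 promoters, that of HES1 alone held it, at 2 places on the gene's strand, with first bases at -84 and -70 from the start site. The HES1 promoter, chr3:194135898-194136197 on the plus strand, is written with both cores in capitals.
HES1: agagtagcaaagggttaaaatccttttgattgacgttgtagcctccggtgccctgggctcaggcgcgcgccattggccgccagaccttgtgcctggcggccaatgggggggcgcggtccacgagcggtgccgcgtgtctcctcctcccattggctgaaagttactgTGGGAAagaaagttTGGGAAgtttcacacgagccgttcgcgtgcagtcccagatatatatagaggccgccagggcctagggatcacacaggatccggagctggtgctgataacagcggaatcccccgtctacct

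Of 9 HES, HEY and NRARP target genes whose promoters were searched, HES1 included, 5 held the core and 4 held it at 2 or more places. HEY1 was left out of this search. The windows of 40 bases around the first core are set out for comparison, each on its gene's strand. Capitals mark the core, written TTCCCA where it lies on the other strand. The levels of HES4, HES5, HEY2 and HEYL are given with the other targets further on.
HES1, chr3:194136052-194136091, plus strand: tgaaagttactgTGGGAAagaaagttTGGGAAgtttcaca
HES4, chr1:1000146-1000185, minus strand: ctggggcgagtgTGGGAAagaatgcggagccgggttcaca
HES5, chr1:2530460-2530499, minus strand: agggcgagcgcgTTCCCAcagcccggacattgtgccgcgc
HEY2, chr6:125749407-125749446, plus strand: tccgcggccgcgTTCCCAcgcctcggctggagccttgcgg
HEYL, chr1:39639794-39639833, minus strand: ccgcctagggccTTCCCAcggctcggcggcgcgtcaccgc
The shorter C/EBP run TTGCG, on both strands, stood in 19.9% of the 27305 promoters, at 2 places in that of NOTCH1 and 1 place in that of NOTCH2. The C/EBP palindrome TTGCNNCAA, again on both strands, stood in 2.02% of promoters and in 0 of the 8 promoters of the Notch genes, so no match overlapped an RBPJ core there. A match is a run of letters and not a bound site.

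In both comparisons nearly all of these genes changed, in a setting where most genes did. A gene was tested where 1 FPKM was reached in a number of libraries equal to the smaller group or more, which left 8 of the 10 genes in C13* shCEBPB against C13* shCON. All 8 passed limma's test at an adjusted p (Benjamini-Hochberg over all genes tested) under 0.05, 3 higher and 5 lower in C13* shCEBPB, where 84.7% of 12006 genes passed (38.9% higher, 45.7% lower). In 7 of the 8 the ranges of both groups lay apart, against 66.0% of all genes tested. In A2780 OlaR against A2780, 9 of the 10 genes were tested and all 9 passed, 5 higher and 4 lower in A2780 OlaR, where 89.8% of 12458 genes passed (40.1% higher, 49.7% lower). None of these 9 overlapped between the groups, against 74.1% of all genes tested. Passing the test therefore says little about the Notch genes as such, and the sizes, the order over the 4 groups and the mix of receptors and ligands are described instead. The median log2 fold change was -1.13 over the 8 genes in the first comparison and 0.93 over the 9 in the second, beside -0.07 and -0.12 over all genes tested. In these bulk libraries, fewer cells that express a gene and less RNA per cell cannot be told apart.

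**Figure D1:**
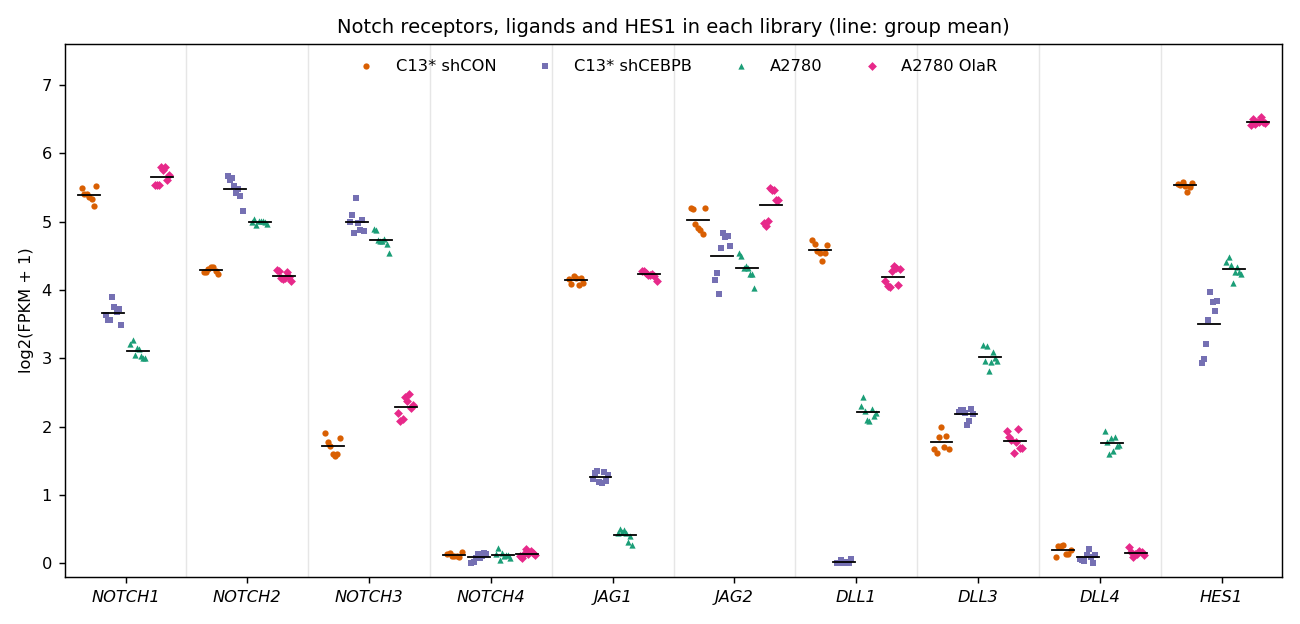
Level of each Notch gene in each of the 31 libraries, as log2(FPKM + 1) on the vertical axis. Each point is 1 library, colors and symbols mark the 4 groups and the line is the group mean of the plotted values. NOTCH1, JAG1, DLL1 and HES1 are high in C13* shCON and A2780 OlaR, NOTCH2 and NOTCH3 are high in C13* shCEBPB and A2780, and NOTCH4 lies near 0 throughout.

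NOTCH1 (chr9:136494433-136546048, hg38, minus strand) was the leading receptor of C13* shCON and A2780 OlaR. Its FPKM ran from 36.5 to 45.0 with a median of 41.2 in C13* shCON, and from 10.2 to 13.8 with a median of 11.6 in C13* shCEBPB. It ran from 6.99 to 8.59 with a median of 7.55 in A2780, and from 45.3 to 54.9 with a median of 49.0 in A2780 OlaR. Every C13* shCEBPB and A2780 library lay below every library of the other groups. NOTCH1 fell by 1.73 on the log2(FPKM + 1) scale in C13* shCEBPB (standard error 0.06, limma adjusted p = 7.70e-15) and rose by 2.55 in A2780 OlaR (standard error 0.05, limma adjusted p = 1.33e-19). The order of its levels was A2780 OlaR, C13* shCON, C13* shCEBPB and A2780, and each neighboring pair differed in 1 limma fit of all 4 groups, in which 12967 genes were tested.

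NOTCH2 (chr1:119911553-120100779, minus strand) moved the other way and was the most abundant receptor of C13* shCEBPB and A2780. Its median was 18.3 FPKM in C13* shCON (17.8 to 19.2) and 44.3 in C13* shCEBPB (34.8 to 49.98), with no overlap. In A2780 the median was 31.1 FPKM (29.8 to 31.9), and in A2780 OlaR it was 17.2 (16.5 to 18.6), again with no overlap. NOTCH2 rose by 1.20 on the log2 scale in C13* shCEBPB (standard error 0.06, limma adjusted p = 4.17e-12) and fell by 0.79 in A2780 OlaR (standard error 0.03, limma adjusted p = 5.65e-15). C13* shCON and A2780 OlaR, the lowest groups, were not separated by the fit of 4 groups (difference -0.08, standard error 0.05, limma adjusted p = 0.212).

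NOTCH2NL, a shorter copy of the start of NOTCH2, was the only NOTCH2 copy with its own entry in the table, and reads from such copies may be shared out between them. NOTCH2NL was at 3.96 ± 0.103 FPKM (SD, n = 7) in C13* shCON and 8.80 ± 0.483 (SD, n = 8) in C13* shCEBPB. In A2780 OlaR it stood at 3.41 ± 0.252 FPKM (SD, n = 8), against 10.9 ± 0.510 (SD, n = 8) in the parent line. The copy moved in the same directions as NOTCH2, so the levels of both are uncertain by the reads they may share.

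NOTCH3 (chr19:15159038-15200995, minus strand) had the largest difference of the receptors in the hairpin comparison. Its FPKM ran from 1.97 to 2.74 with a median of 2.28 in C13* shCON, and from 27.4 to 39.8 with a median of 30.6 in C13* shCEBPB. It ran from 22.2 to 28.6 with a median of 25.4 in A2780, and from 3.22 to 4.55 with a median of 3.90 in A2780 OlaR. No C13* shCON or A2780 OlaR library came near those of the other pair of groups. NOTCH3 rose by 3.29 on the log2 scale in C13* shCEBPB (standard error 0.08, limma adjusted p = 1.43e-17) and fell by 2.45 in A2780 OlaR (standard error 0.06, limma adjusted p = 3.80e-18). C13* shCEBPB stood above A2780 in the fit of 4 groups (limma adjusted p = 0.000695) although their libraries overlapped.

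NOTCH4 (chr6:32194843-32224067, minus strand), a receptor best known from endothelium, was hardly detected. Its highest level over all 31 libraries was 0.170 FPKM, in A2780, and the 4 group means lay between 0.0621 and 0.102. The gene did not pass the filter, and the groups overlapped in both comparisons (exact permutation test, two-sided, p = 0.154 and p = 0.498). It shares 98 exonic bases with GPSM3 on the same strand.

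The 3 expressed receptors thus changed places. The 4 receptors summed to 62.0 ± 2.93 FPKM (SD, n = 7) in C13* shCON, and to 87.0 ± 7.57 (SD, n = 8) in C13* shCEBPB. They summed to 71.1 ± 4.43 FPKM (SD, n = 8) in A2780 OlaR and to 64.3 ± 3.10 (SD, n = 8) in its parent. NOTCH1 made up 66.2% of that sum in C13* shCON and 69.7% in A2780 OlaR, against 13.5% in C13* shCEBPB and 11.8% in A2780. NOTCH2 took 50.6% in C13* shCEBPB and 48.1% in A2780, against 30.0% in C13* shCON and 24.7% in A2780 OlaR. NOTCH3 gave 35.9% and 39.9% in C13* shCEBPB and A2780, and 3.68% and 5.45% in C13* shCON and A2780 OlaR. Each of these 3 shares differed in both comparisons (two-sided exact permutation test, p = 0.000155, which is the lowest value possible with these libraries, and 0.000207 after Benjamini-Hochberg adjustment over the 8 receptor tests). Shares of 1 sum are tied to each other, so these are not separate results. The share of NOTCH4, at most 0.142% in each group mean, differed in the hairpin comparison (adjusted p = 0.00906, exact permutation test) and not in the other (adjusted p = 0.852).

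**Figure D2:**
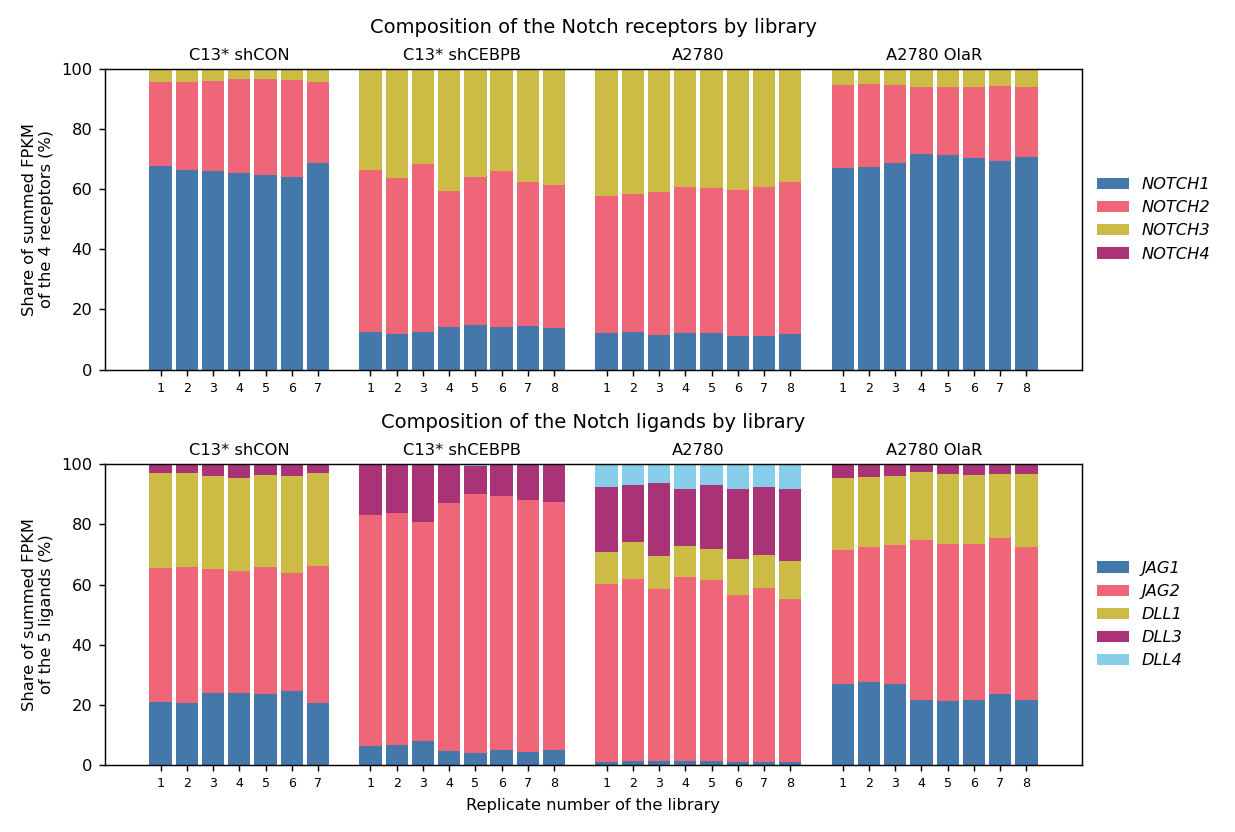
Share of each receptor in the summed FPKM of the 4 receptors (top) and of each ligand in the summed FPKM of the 5 ligands (bottom), in percent, with 1 bar for each library. NOTCH1 takes about the same large part in all C13* shCON and A2780 OlaR libraries and a small part elsewhere, JAG2 fills most of the ligand sum in C13* shCEBPB, and DLL4 is clearly visible only in A2780.

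JAG1 (chr20:10637684-10673999, minus strand), a ligand of the Jagged class, was at a like level in C13* shCON and A2780 OlaR and low in the other groups. Its FPKM ran from 15.8 to 17.3 with a median of 16.9 in C13* shCON, and from 1.27 to 1.56 with a median of 1.41 in C13* shCEBPB. It ran from 0.205 to 0.420 with a median of 0.359 in A2780, and from 16.5 to 18.4 with a median of 17.8 in A2780 OlaR. Every library of the high pair of groups was above every library of the low pair. JAG1 fell by 2.87 on the log2(FPKM + 1) scale in C13* shCEBPB (standard error 0.04, limma adjusted p = 2.06e-20) and rose by 3.81 in A2780 OlaR (standard error 0.04, limma adjusted p = 2.05e-24). The difference of 0.09 between A2780 OlaR and C13* shCON did not pass (standard error 0.04, limma adjusted p = 0.0694), but passed after median ratio scaling (0.0207), quantile normalization (0.00794) or with a replicate block by label number (0.0461), and not with one by library number (0.0773). The gene shares 306 exonic bases with a long noncoding RNA on the other strand.

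JAG2 (chr14:105140982-105168824, minus strand), the other Jagged ligand, was present in every group. Its median was 30.2 FPKM in C13* shCON (27.2 to 35.8) and 23.7 in C13* shCEBPB (14.4 to 27.5), and the groups overlapped. In A2780 the median was 19.0 FPKM (15.3 to 22.3), and in A2780 OlaR it was 38.9 (29.7 to 43.9), with no overlap. JAG2 fell by 0.52 on the log2 scale in C13* shCEBPB (standard error 0.13, limma adjusted p = 0.00105) and rose by 0.93 in A2780 OlaR (standard error 0.09, limma adjusted p = 1.03e-08). The size depended on the library number, a number in the library code that the labels do not tie to a batch. In libraries 1 to 3 JAG2 averaged 33.8 FPKM in C13* shCON and 16.3 in C13* shCEBPB (limma adjusted p = 6.61e-06). In libraries 4 to 8 the means were 29.97 and 25.6 FPKM, a fall by 0.22 on the log2 scale (limma adjusted p = 0.0172). The rise in A2780 OlaR was 0.52 in libraries 1 to 3 and 1.18 in libraries 4 to 8. JAG2 shares 469 exonic bases with a long noncoding RNA on the same strand.

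DLL1 (chr6:170282206-170306565, minus strand), a Delta-like ligand, was the gene of this set with the largest difference between C13* shCON and C13* shCEBPB. It ran from 20.5 to 25.6 FPKM with a median of 22.8 in C13* shCON. In C13* shCEBPB it was listed at 0 in 5 of 8 libraries, and the highest stood at 0.0464 FPKM. In A2780 its FPKM ran from 3.25 to 4.41 with a median of 3.64, and in A2780 OlaR from 15.4 to 19.4 with a median of 17.5. No pair of the 4 groups overlapped. DLL1 fell by 4.58 on the log2(FPKM + 1) scale in C13* shCEBPB (standard error 0.05, limma adjusted p = 7.86e-23), a size that the added 1 FPKM limits, and rose by 1.97 in A2780 OlaR (standard error 0.06, limma adjusted p = 7.65e-17). It was also the only ligand that passed as lower in A2780 OlaR than in C13* shCON (difference -0.40, standard error 0.05, limma adjusted p = 6.69e-07), a call that was lost with 0.01 FPKM added in place of 1 (adjusted p = 0.242). DLL1 shares 370 exonic bases with FAM120B on the other strand, and counting is not stated to have used the strand.

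DLL3 (chr19:39498895-39508481, plus strand) is an atypical Delta-like ligand that mostly stays inside the cell and can restrain Notch signaling there. Its median was 2.26 FPKM in C13* shCON (2.07 to 2.99), 3.62 in C13* shCEBPB (3.05 to 3.79), 6.91 in A2780 (6.02 to 8.13) and 2.46 in A2780 OlaR (2.07 to 2.89). The groups did not overlap in either comparison. DLL3 rose by 0.41 on the log2 scale in C13* shCEBPB (standard error 0.06, limma adjusted p = 4.31e-06) and fell by 1.23 in A2780 OlaR (standard error 0.06, limma adjusted p = 2.00e-13). It was the only ligand that passed as higher in C13* shCEBPB.

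DLL4 (chr15:40929340-40939073, plus strand), the Delta-like ligand of sprouting blood vessels, was found at 1 FPKM or more in A2780 alone. It ran from 2.02 to 2.83 FPKM with a median of 2.36 in A2780 and from 0.0656 to 0.182 with a median of 0.109 in A2780 OlaR. DLL4 fell by 1.60 on the log2 scale in A2780 OlaR (standard error 0.05, limma adjusted p = 1.92e-17). Endothelial markers did not accompany it in A2780, where the 7 listed markers summed to between 0.0859 and 0.270 FPKM and PECAM1 was listed at 0 in every library. Markers of other cell types were high in A2780 alone, as DLL4 was, and their part was not tested. The 6 leukocyte markers summed to between 76.3 and 102.7 FPKM there, nearly all from PTPRC, and to at most 1.37 in the other groups. The 6 fibroblast markers summed to between 355 and 411 FPKM there, mostly from COL3A1, and to at most 23.2 in the other groups. In C13* shCON and C13* shCEBPB it averaged 0.141 and 0.0617 FPKM, below the filter, and the groups overlapped (exact permutation test, two-sided, p = 0.0126).

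The ligands summed to 73.9 ± 5.15 FPKM (SD, n = 7) in C13* shCON and 75.2 ± 7.20 (SD, n = 8) in A2780 OlaR. The sum was 27.1 ± 4.85 FPKM (SD, n = 8) in C13* shCEBPB and 32.5 ± 2.93 (SD, n = 8) in A2780. JAG2 made up 80.8% of the ligand sum in C13* shCEBPB, 58.3% in A2780, 49.6% in A2780 OlaR and 42.6% in C13* shCON. JAG1 and DLL1 together held most of the rest in C13* shCON, with 22.6% and 31.3%, and in A2780 OlaR, with 23.8% and 23.1%. In A2780 the rest was spread over DLL3 with 22.0%, DLL1 with 11.3% and DLL4 with 7.37%. Of the 10 ligand shares tested, 9 differed (exact permutation test, two-sided, Benjamini-Hochberg adjusted p = 0.000173 each), and the share of DLL4 in the hairpin comparison did not (adjusted p = 0.663, exact permutation test). JAG2 is a case where level and share parted, since its level was lower and its share higher in C13* shCEBPB, and its level was higher and its share lower in A2780 OlaR.

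HES1 (chr3:194136148-194138732, plus strand), the target in this set and the gene whose promoter is shown above, ran from 42.2 to 47.0 FPKM with a median of 45.6 in C13* shCON. It ran from 6.61 to 14.7 FPKM with a median of 11.3 in C13* shCEBPB, from 16.2 to 21.3 with a median of 18.7 in A2780, and from 84.4 to 91.6 with a median of 86.9 in A2780 OlaR. All 4 groups were apart from each other. HES1 fell by 2.03 on the log2 scale in C13* shCEBPB (standard error 0.14, limma adjusted p = 1.67e-10) and rose by 2.16 in A2780 OlaR (standard error 0.04, limma adjusted p = 1.00e-19). Within C13* shCEBPB it averaged 7.27 ± 0.882 FPKM (SD, n = 3) in libraries 1 to 3 and 12.8 ± 1.47 (SD, n = 5) in libraries 4 to 8. CEBPB split in the same libraries, at 37.8 ± 6.58 FPKM (SD, n = 3) and 52.8 ± 4.02 (SD, n = 5). A link between these splits was not tested. HES1 fell by 2.51 in libraries 1 to 3 and by 1.73 in libraries 4 to 8, and the call held in both ranges.

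**Figure D3:**
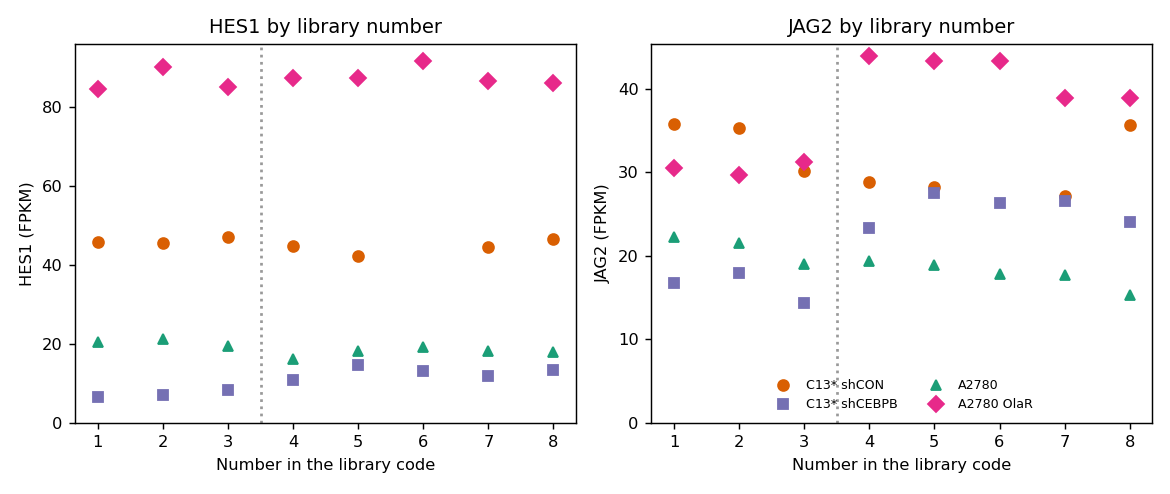
FPKM of HES1 (left) and JAG2 (right) against the number in the library code, with 1 point for each library and colors and symbols for the 4 groups. The dotted line parts libraries 1 to 3 from 4 to 8. Both genes are lower in libraries 1 to 3 of C13* shCEBPB, JAG2 is lower in libraries 1 to 3 of A2780 OlaR, and HES1 keeps the order of the groups at every number.

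HES1 was also where A2780 OlaR and C13* shCON parted. In the fit of 4 groups, 37.7% of 12967 genes passed between these groups, mostly by small amounts. Whether they passed or not, 69 genes (0.532%) differed 2-fold or more on the log2(FPKM + 1) scale. HES1 was 1.93 times higher in A2780 OlaR, a difference of 0.93 on the log2 scale (standard error 0.11, limma adjusted p = 1.82e-08), and 81 genes (0.625%) had a larger difference. NOTCH3 was 1.70 times higher in A2780 OlaR (difference 0.57, standard error 0.07, limma adjusted p = 1.25e-07) from a low base, and NOTCH1 was 1.21 times higher (difference 0.26, standard error 0.06, limma adjusted p = 0.000491). JAG2 (difference 0.23, limma adjusted p = 0.124), DLL3 (0.02, 0.817) and DLL4 (-0.04, 0.537) did not pass, like NOTCH2 and JAG1. These groups differ in line label, hairpin vector and olaparib history, which cannot be told apart here. The contrasts among the 4 groups share libraries and are not independent of each other.

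**Figure D4:**
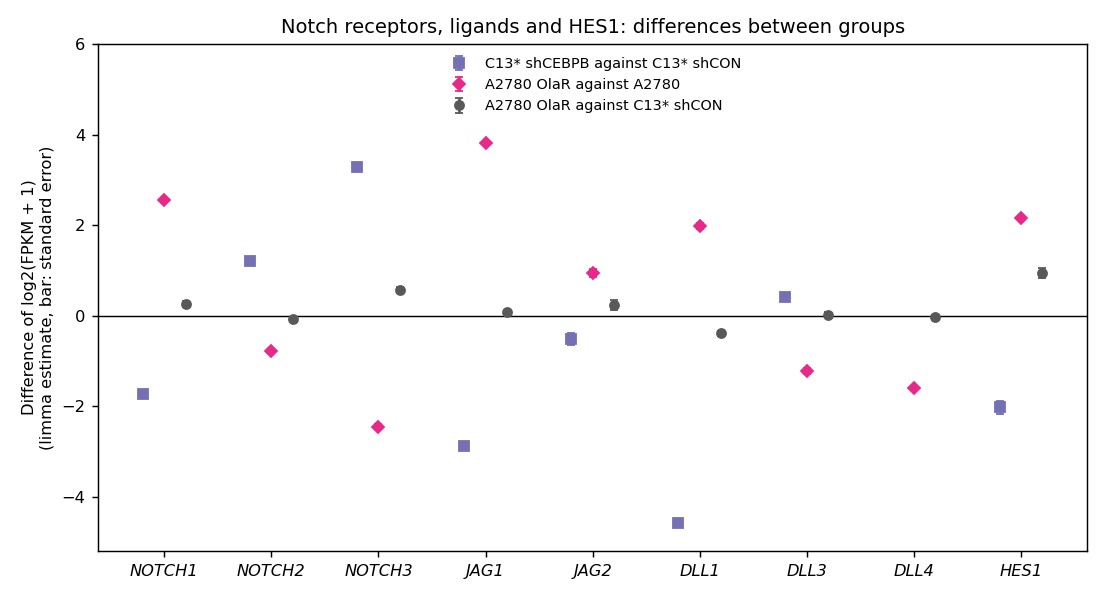
Difference of log2(FPKM + 1) for each Notch gene past the filter in 3 contrasts, with points for the limma estimate and bars for its standard error, which is often smaller than the symbol. The 8 genes plotted in both main comparisons lie on opposite sides of 0 in them. How many of all genes do so was not counted. A2780 OlaR and C13* shCON, nearly alike in profile (r = 0.993), are on opposite sides of the comparisons. DLL4 is plotted without the C13* comparison, where it was under the filter. The contrast of A2780 OlaR with C13* shCON lies close to 0 except at HES1, NOTCH3 and DLL1.

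Over the 4 groups, 27 neighboring pairs of levels were tested in the 9 genes past the filter, and 20 differed. Of all 12967 genes, 37.7% passed between A2780 OlaR and C13* shCON, 84.3% between C13* shCEBPB and C13* shCON, 84.8% between A2780 OlaR and C13* shCEBPB, 87.6% between A2780 and C13* shCON, 88.0% between A2780 and C13* shCEBPB and 88.0% between A2780 OlaR and A2780. NOTCH1 and HES1 had A2780 OlaR first and C13* shCON second, and for both all 3 steps differed. In the 2 lowest places NOTCH1 had C13* shCEBPB above A2780, and HES1 had A2780 above C13* shCEBPB. The steps that did not differ were mostly those between A2780 OlaR and C13* shCON, which were neighbors and not separated in NOTCH2, JAG1, JAG2, DLL3 and DLL4. The other 2 were C13* shCEBPB against A2780 in JAG2 (limma adjusted p = 0.128) and A2780 OlaR against C13* shCEBPB in DLL4 (limma adjusted p = 0.117). The latter, between values near 0 FPKM, passed with 0.1 or 0.01 FPKM added in place of 1 (limma adjusted p = 0.00875 and 0.00524), and turned to -0.12 and passed after quantile normalization (limma adjusted p = 0.0233).

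Within groups, some of these genes varied together from library to library. With each group mean taken away, the deviations of NOTCH1 and NOTCH3 correlated at r = 0.836 over the 31 libraries, and between 0.731 and 0.966 inside each group, although their group means ran in opposite directions. NOTCH1 and JAG2 correlated at r = 0.706 in the same way, and JAG2 and HES1 at 0.692. NOTCH2 and HES1 correlated at -0.665, but inside groups this held only in C13* shCON (-0.577) and C13* shCEBPB (-0.779), against 0.184 in A2780 and 0.369 in A2780 OlaR. These values are descriptions of libraries that also share preparation and depth, and the library number moves with JAG2 and HES1 as shown above.

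Genes whose levels closely followed those of single Notch genes over the 31 libraries were found among 12967 genes by Pearson correlation of log2(FPKM + 1). PROM2, a membrane glycoprotein of epithelial cells, was among the closest 2 for NOTCH1 (r = 0.996) and for JAG1 (r = 0.998), and FXYD3, a regulator of the sodium pump, was the closest to JAG1 (r = 0.998). MTSS1, an actin-binding protein, was closest to DLL1 (r = 0.996), and RNF150 to NOTCH2 (r = 0.993). GBP2, an interferon-induced GTPase, was closest to DLL4 (r = 0.995), and the tyrosine kinase SRC to HES1 (r = 0.979). With 4 groups this far apart such values mostly repeat the group means, and 620 genes reached r of at least 0.95 with NOTCH1.

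The rest of the pathway was read from lists of 72 further genes by role, of which 68 were in the table. In C13* shCEBPB against C13* shCON, 60 were tested, 24 were higher, 32 were lower and 4 did not pass. In A2780 OlaR against A2780, 62 were tested, 26 were higher, 33 were lower and 3 did not pass. The shares that passed, 93.3% and 95.2%, were close to the 84.7% and 89.8% of all genes. Of all genes tested, 38.9% were higher and 45.7% lower in C13* shCEBPB, and 40.1% were higher and 49.7% lower in A2780 OlaR. The counts by role below are to be read beside these shares.

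The other HES, HEY and NRARP targets past the filter mostly moved against HES1. In C13* shCEBPB 5 of the 6 tested rose and HES6 fell, although the calls of HES6 (adjusted p = 0.327) and NRARP (adjusted p = 0.0902) were lost in limma's test after quantile normalization, and NRARP was level in libraries 1 to 3 (difference -0.01). HEY1 was at 2.67 ± 0.244 FPKM (SD, n = 7) in C13* shCON and 7.54 ± 0.632 (SD, n = 8) in C13* shCEBPB, a rise of 1.22 on the log2 scale (standard error 0.06, limma adjusted p = 4.12e-13). HES2 rose by 1.10 (standard error 0.07, limma adjusted p = 8.45e-11). In A2780 OlaR 5 of the 7 tested fell, while HES2 and NRARP, a feedback inhibitor of the nuclear complex, rose with HES1. The fall of HEY1 there, by 0.18, was lost after median ratio scaling (limma adjusted p = 0.102) or quantile normalization (limma adjusted p = 0.898). HES6, which can counteract HES1, fell by 2.04 (standard error 0.11, limma adjusted p = 9.29e-13) and HES7 by 1.63 (standard error 0.08, limma adjusted p = 8.83e-14). Of the genes whose promoter windows are shown, HES4 rose by 1.03 in C13* shCEBPB (limma adjusted p = 3.90e-05) and fell by 0.93 in A2780 OlaR (limma adjusted p = 3.81e-09), against HES1 in both. HEY2 fell in A2780 OlaR, to 1.05 ± 0.104 FPKM (SD, n = 8) from 3.13 ± 0.426 in the parent line (SD, n = 8, limma adjusted p = 2.12e-12), also against HES1. In the C13* groups HEY2 was under the filter and not tested. It averaged 0.871 FPKM in C13* shCON (0.580 to 1.04) and 0.255 in C13* shCEBPB (0.136 to 0.366), lower as HES1 was. HES5 and HEYL averaged at most 0.0175 and 1.17 FPKM in any group.

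Among the nuclear partners, RBPJ itself differed by little. It averaged 12.9 FPKM in C13* shCON, 9.19 in C13* shCEBPB, 15.5 in A2780 and 13.4 in A2780 OlaR. RBPJ fell by 0.45 in C13* shCEBPB (standard error 0.07, limma adjusted p = 2.29e-05) and by 0.21 in A2780 OlaR (standard error 0.08, limma adjusted p = 0.0197). The latter was lost after median ratio scaling (limma adjusted p = 0.185) and turned to a rise of 0.13 in libraries 1 to 3 (limma adjusted p = 0.0250). The co-activator MAML3 rose by 1.37 in C13* shCEBPB (limma adjusted p = 1.28e-13), where 3 of 8 tested genes of this list rose, 3 fell and 2 did not pass. The acetyltransferase CREBBP rose by 0.93 in C13* shCEBPB and fell by 2.35 in A2780 OlaR, where 3 of 9 rose and 6 fell. Of 11 corepressors, 4 rose and 7 fell in C13* shCEBPB, and 7 rose and 4 fell in A2780 OlaR, of which 3 small rises were lost when libraries were set to a common sum. TLE3, a Groucho corepressor that HES proteins recruit, rose by 2.30 in C13* shCEBPB (standard error 0.08, limma adjusted p = 3.02e-15) and fell by 2.40 in A2780 OlaR (standard error 0.06, limma adjusted p = 1.74e-18).

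Of the 9 proteases and gamma-secretase subunits that process the receptors, 3 rose, 5 fell and 1 did not pass in C13* shCEBPB, and 1 rose and 8 fell in A2780 OlaR. FURIN, which makes the first cut of the receptor on its way to the membrane, rose by 2.51 in C13* shCEBPB (standard error 0.08, limma adjusted p = 1.95e-15) and fell by 1.92 in A2780 OlaR (standard error 0.06, limma adjusted p = 1.50e-16). ADAM10, which cuts the receptor once ligand has bound, went the other way and fell by 1.09 in C13* shCEBPB (limma adjusted p = 4.27e-10), and it was the 1 gene of the list that rose in A2780 OlaR, by 0.84 (limma adjusted p = 2.84e-11). Of the 6 enzymes that add sugars to the receptors, 4 rose and 2 fell in C13* shCEBPB, and 2 rose, 3 fell and 1 did not pass in A2780 OlaR. LFNG, a Fringe enzyme that alters which ligands a receptor answers to, rose in both, by 1.57 (limma adjusted p = 6.60e-09) and by 1.34 (limma adjusted p = 2.88e-11).

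Genes that drive ligand uptake mostly moved in the direction of JAG1 and DLL1. Of 6 genes, 0 rose and 5 fell in C13* shCEBPB, and 4 rose and 1 fell in A2780 OlaR. EPN1 passed in neither comparison, and its direction turned with the library number. In C13* shCEBPB it fell by 0.43 in libraries 1 to 3 (limma adjusted p = 0.00408). It rose by 0.37 there in libraries 4 to 8 (limma adjusted p = 0.000297). In A2780 OlaR it fell by 0.28 in libraries 1 to 3 (limma adjusted p = 0.000119). It rose by 0.40 there in libraries 4 to 8 (limma adjusted p = 5.82e-06). NEURL1, a Neuralized ubiquitin ligase, was at 51.0 ± 3.30 FPKM (SD, n = 7) in C13* shCON and 3.42 ± 0.546 (SD, n = 8) in C13* shCEBPB. In A2780 OlaR it reached 31.1 ± 2.82 FPKM (SD, n = 8), from 0.119 ± 0.0323 (SD, n = 8) in the parent line. NEURL1 fell by 3.56 in C13* shCEBPB and rose by 4.84 in A2780 OlaR. NEURL1 was also lower in A2780 OlaR than in C13* shCON (difference -0.70, standard error 0.06, limma adjusted p = 1.91e-10), as DLL1 was. MIB1, the other main ligase for ligands, fell in both comparisons.

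Genes of receptor turnover mostly went the same way as the ligases. Of 8 tested, 1 rose and 7 fell in C13* shCEBPB, and 5 rose, 2 fell and 1 did not pass in A2780 OlaR. ITCH, a ubiquitin ligase for Notch, fell by 2.07 in C13* shCEBPB (standard error 0.07, limma adjusted p = 1.27e-14) and rose by 1.04 in A2780 OlaR (standard error 0.07, limma adjusted p = 7.95e-11). DTX2, a Deltex ligase, fell by 1.98 (limma adjusted p = 5.04e-14) and rose by 2.31 (limma adjusted p = 6.02e-17). Of 5 non-canonical ligands tested in each comparison, 3 rose in C13* shCEBPB and 2 in A2780 OlaR. DNER, a neuronal ligand without the domain that canonical ligands use, was at 1.60 ± 0.272 FPKM (SD, n = 7) in C13* shCON and 32.1 ± 2.86 (SD, n = 8) in C13* shCEBPB, a rise of 3.67 (limma adjusted p = 9.28e-19). CNTN1, an adhesion protein, averaged 8.52 FPKM in C13* shCON and was listed at 0 in every C13* shCEBPB library.

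**Figure D5:**
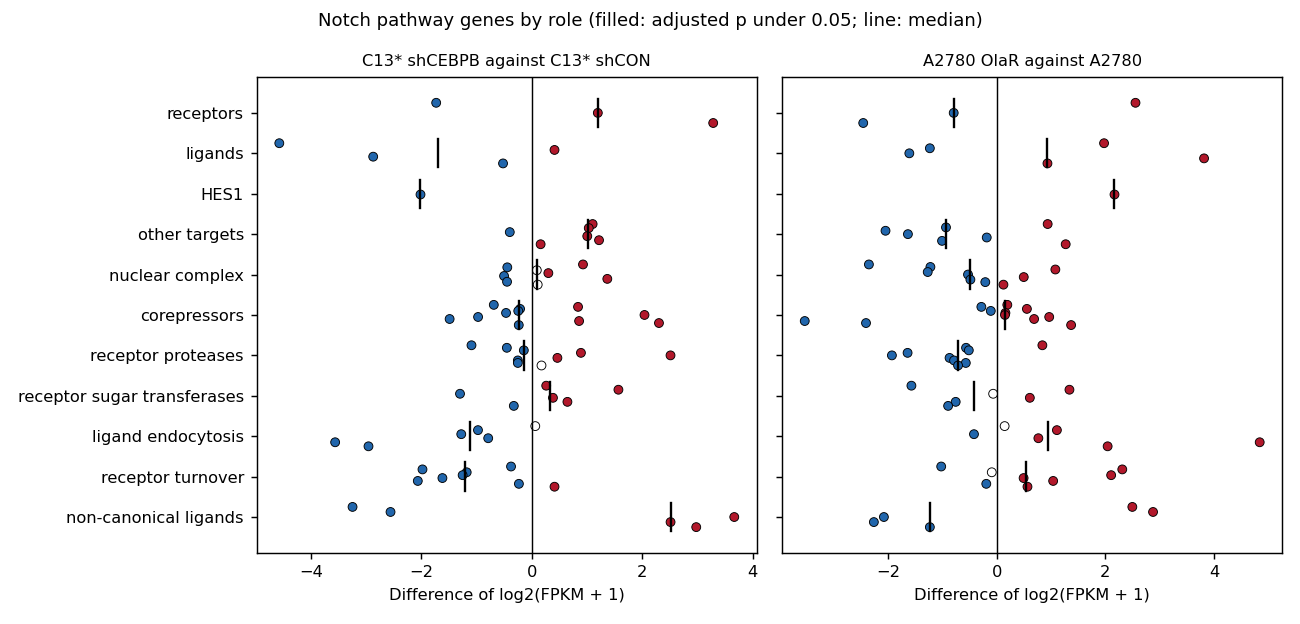
Difference of log2(FPKM + 1) for Notch pathway genes past the filter, by role, in C13* shCEBPB against C13* shCON (left) and A2780 OlaR against A2780 (right). Each point is 1 gene, filled where limma's adjusted p was under 0.05, red above 0 and blue below, and the line is the median of the role. Ligand endocytosis and receptor turnover lie mostly below 0 on the left and above 0 on the right, and most other targets lie opposite to HES1, except 1 gene on the left and 2 on the right.

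Between A2780 OlaR and C13* shCON the pathway genes were close together, as genes in general were in this contrast. Of 63 tested, 14 were higher and 15 were lower in A2780 OlaR, and 0 differed 2-fold or more on the log2(FPKM + 1) scale. Over all 12967 genes, 37.7% passed and 0.532% differed 2-fold or more. The median absolute difference of the pathway genes was 0.15 on the log2 scale. HES1, at 0.93, was farther from 0 than the largest of these, 0.71 in the corepressor CTBP1.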

How the data were processed

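mRNA-seq of 31 libraries in 4 groups was analyzed. As the study's methods state, the authors sequenced 150 bp paired ends, mapped reads to hg38 with TopHat and counted them with HTSeq. The values the authors deposited are FPKM, 1 table for all libraries, and the tool, annotation and strand setting behind them are not given in the sources used here. Read depth is therefore unknown, and no counting interval is given. Sums of FPKM ran from 417556 to 454578 over the libraries.

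Of 19225 entries, 4 with repeated symbols were left out, leaving 19221 genes. Groups and replicate numbers came from the sample labels. FPKM were log2 transformed after adding 1, and genes were kept where the number of libraries at 1 FPKM or more equalled or passed the size of the smaller group. limma 3.58.1 (R 4.3.3) with a mean-dependent prior compared C13* shCEBPB with C13* shCON and A2780 OlaR with A2780, and a fit of all 4 groups gave the order of levels. p-values were adjusted by Benjamini-Hochberg over all genes tested, with a threshold of 0.05. Shares and genes under the filter were tested by exact permutation over every split of the libraries (numpy 2.4.6). Ranks for an exact rank-sum test, run as an alternative, came from scipy 1.17.1. Steps were tested on simulated data. Positions and exon overlaps came from GENCODE 44 on hg38, promoters from RefSeq on GRCh38.p14. Named pathway genes are the 2 with the largest change past the threshold in each list, and RBPJ, HES5, HEYL, MIB1, CTBP1, the marker genes and further mentions of HES2, HES4, HEY2, HES6, NRARP, HEY1, CREBBP and ADAM10 were chosen after their values were seen. The Notch genes and all lists were chosen with earlier results of these data known. Alternatives covered added constants, filters, scalings, a replicate block, library number ranges and an exact rank-sum test. The scalings and ranges of the other pathway genes were chosen after seeing the data.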

Additional observations from a re-analysis of the deposited data

Results flagged for a closer look

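Of 40 sets of values (10 Notch genes in 4 groups), 1 held a library that stood apart from the rest of its group by Dixon's ratio, where chance alone marks about 1 in 20 such sets. NOTCH3 in C13* shCEBPB replicate 4 was at 39.8 FPKM, and the next highest library was at 33.2 FPKM (ratio 0.537, critical value 0.526). The library lies on the same side as the group difference, all other C13* shCEBPB libraries were also above every C13* shCON library, and the cause was not tested.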

How the results depend on the processing

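In the 2 main comparisons no log2 fold change of a Notch gene turned its direction under the alternatives run. Of 248 log2 fold changes recomputed, 242 kept direction and side of the threshold, 4 lost their call and 2 gained one. The 4 losses came from requiring a fold change of 2 or more, which left 6 Notch genes (without JAG2 and DLL3) in the hairpin comparison and 7 (without NOTCH2 and JAG2) in the olaparib comparison. The same requirement cut the genes called from 10166 to 3539 and from 11190 to 4446. Both gains were DLL4 in C13* shCEBPB against C13* shCON, tested in 1 fit of 4 groups (limma adjusted p = 0.0223) or without the filter (limma adjusted p = 0.00905). In libraries 1 to 3, differences in share that missed the threshold changed sign for NOTCH4 in the olaparib comparison (-0.0337 percentage points) and DLL4 in the hairpin comparison (-0.0456 percentage points), and 3 libraries against 3 cannot reach a threshold of 0.05 in an exact test. Same-numbered libraries did not deviate together (mean r = -0.148 and -0.233), so the numbers do not pair them. A replicate block left 8 and 9 Notch genes called and 9885 and 10960 genes in all. In the order of levels, median ratio scaling also separated C13* shCEBPB from A2780 in JAG2 (limma adjusted p = 0.0207), and the changed steps of JAG1, DLL1 and DLL4, one of which turned its direction, are given with those genes. Depth is unknown, so values near 0, as in NOTCH4, DLL4 and DLL1, cannot be given a detection limit.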
